A study of Homo sapiens with 16 samples.

Results

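The comparison set oleic acid, a cis-monounsaturated fatty acid, against stearic acid, the saturated fatty acid of the same chain length, in HepG2 cells. HepG2 is an established human hepatocellular carcinoma line that makes many liver plasma proteins and lipoproteins. The members were the 4 samples labelled as oleic acid and the 4 labelled as stearic acid, 8 of the 16 samples of the series, and they were identified by their labels. All cells were kept without serum, and the treated cells received 100 µM of 1 fatty acid for 7 days. The other samples were 4 given elaidic acid, the trans isomer of oleic acid, and 4 controls without fatty acid. The labels state 4 biological replicates a group and 2 arrays a sample, and the deposited table holds 1 value a sample.

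Oleic acid is readily esterified into triglyceride and stored in lipid droplets, whereas stearic acid is a substrate of stearoyl-CoA desaturase, which converts it to oleic acid. Saturated fatty acids that accumulate in membranes are known to activate the unfolded protein response of the endoplasmic reticulum, and unsaturated fatty acids are known to restrain the sterol regulatory element-binding proteins (SREBPs), which drive transcription of the enzymes of cholesterol and fatty acid synthesis. The gene groups described were taken from these pathways and from the main housekeeping functions of a liver cell.

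By the array numbers that the labels give, the samples divide into 2 ranges. All oleic acid samples and all controls lie in range A, all stearic acid samples lie in range B, and elaidic acid lies in both, with replicates 2 and 4 in range A and replicates 1 and 3 in range B. Array range and fatty acid therefore cannot be told apart from the oleic and stearic acid samples alone. The elaidic acid samples give the only direct measure of the range within 1 fatty acid, here called the range gap (elaidic acid in A minus elaidic acid in B, 2 samples against 2). Each difference below is the log2 intensity with oleic acid minus that with stearic acid. The blocked difference is the same value after array range enters the model, which equals the difference less the range gap.

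The 8 arrays had median intensities of 20.73 to 49.44 with oleic acid and 45.8 to 76.14 with stearic acid, and 3.31% to 6.239% of their values lay at or below 0. Of 30968 probes, 22939 were above 0 in every sample and were tested, 13453 of them with a gene symbol. Principal component 1 (47.28% of the variance) placed all 10 samples of range A at scores of 2.849 or less and all 6 samples of range B at 70.42 or more, elaidic acid samples included. Oleic acid replicate 4 had the lowest score and was the dimmest of the 8 arrays. Across probes, elaidic acid samples in range B correlated with stearic acid samples at a median of 0.9616 (8 pairs) and with oleic acid samples at 0.9041, and elaidic acid samples in range A correlated with oleic acid samples at 0.9464 and with stearic acid samples at 0.8988.

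Oleic and stearic acid samples differed at a large share of the array. Of the 22939 probes tested, 9057 passed limma's test at a Benjamini-Hochberg adjusted p under 0.05 (39.5%), 4827 higher with oleic acid (21.0%) and 4230 lower (18.4%), and these are the probes named called here. The 4 oleic acid values lay wholly above the 4 stearic acid values at 5401 probes (23.5%) and wholly below at 4860 (21.2%), together 10261 (44.7%). The median absolute difference of the called probes was 1.24. Without oleic acid replicate 4 the count was 4766, and without stearic acid replicate 1 it was 5247. Without normalisation between arrays the split was 301 higher and 4824 lower, and the median difference of all probes was -0.39 in place of 0.21. In bulk RNA, more transcript per cell and more cells that carry it cannot be told apart.

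Most of this difference ran in the same direction as the range gap. Across the 22939 probes the difference and the range gap correlated at r = 0.747 (Spearman 0.752), although they share no sample. Both set arrays of range A against arrays of range B. Of the called probes, 8526 (94.1%) had a range gap of the same sign, against 81.1% of all probes, and 6263 (69.2%) had a range gap of at least 50% of the difference. The range gap itself was called at 930 probes (4.05%), 389 higher and 541 lower in A, and all 632 of these that were also called between oleic and stearic acid had the same sign in both. With range as a block, limma called 0 of 22939 probes (0%), with a smallest adjusted p of 0.393. That count was 6, 11, 6 and 29 without elaidic acid replicates 1 to 4 in turn, and 286 with arrays weighted by quality. At an unadjusted p under 0.05 the blocked fit held 1513 probes (6.60%), 710 higher and 803 lower with oleic acid. Of these, 927 were called without the block and 921 had the same direction in both fits. The median standard error was 0.357 without and 0.561 with the block, which rests on 2 elaidic acid samples in each range.

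**Figure D1:**
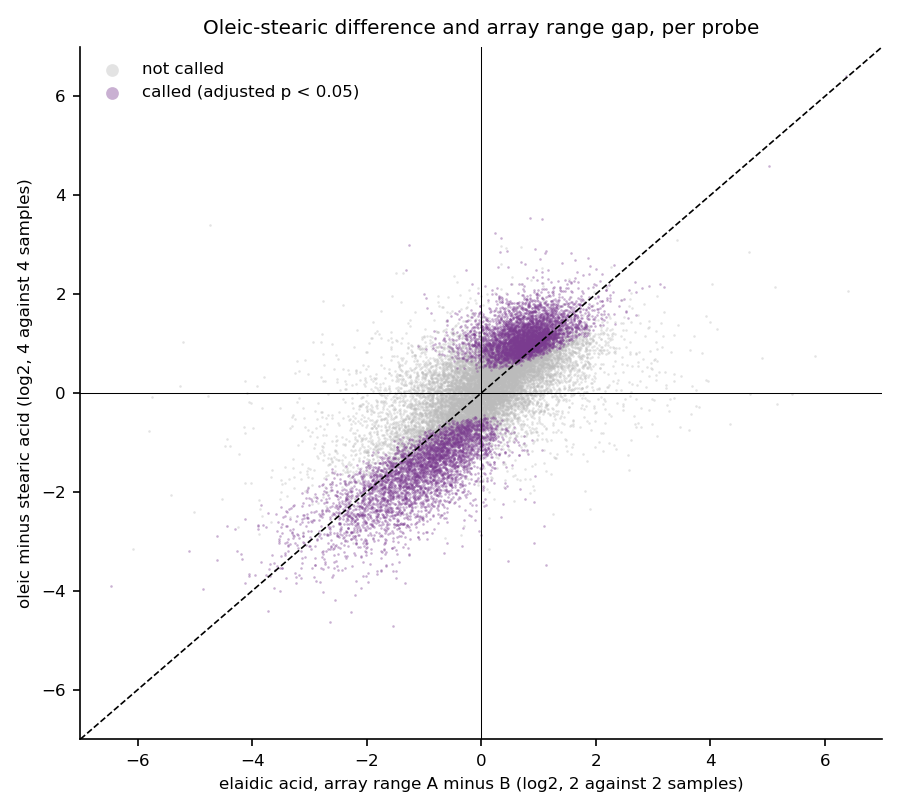
Each point is 1 of the 22939 probes tested, with the elaidic acid range gap on the x axis and the oleic minus stearic acid difference on the y axis (both log2). The 9057 called probes are purple, the dashed line marks equality, and 1 probe lies outside the axes. The cloud runs along the dashed line, and called probes near the vertical axis are those with a small range gap.

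The position of the 4 elaidic acid samples about the midpoint of the oleic and stearic acid means sorts the called probes. At 5477 of the 9057 (60.5%), the elaidic acid samples of range A lay on the oleic acid side and those of range B on the stearic acid side. At 448 (4.95%) all 4 lay on the oleic acid side, at 465 (5.13%) all 4 lay on the stearic acid side, and at 27 they were split the other way. The remaining 2640 were mixed. At 1254 called probes (13.8%) the range gap was under 25% of the difference or of opposite sign, 637 of them higher and 617 lower with oleic acid, and at 1009 of these the oleic and stearic acid samples did not overlap. The genes below are read with this in view, and each is given with its range gap. Counts of calls in the gene lists below stand beside 39.5% of all probes tested, called in either direction.

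The endoplasmic reticulum stress element, the binding site of the unfolded protein response factors ATF6 and XBP1, was read in the promoters of the chaperone list, because that response is the one a saturated fatty acid is best known to evoke. The motif searched was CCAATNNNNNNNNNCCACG on both strands in the 250 bases before the start site, from RefSeq sequence on GRCh38.p14. It occurred in 26 of 35116 promoters (0.074%) and in 7 of the 23 list members that had a promoter in the table. HSPA5 encodes the chaperone BiP, CRELD2 a secreted protein of the endoplasmic reticulum and HSP90B1 the chaperone GRP94. Their 250 bases are printed with each motif in capitals. HSPA5 lies at chr9:125241344-125241593 on the minus strand with the motif from 66 bases before the start, CRELD2 at chr22:49918384-49918633 on the plus strand with the motif in reverse from 80 bases before the start, and HSP90B1 at chr12:103930160-103930409 on the plus strand with a forward motif from 194 and a reverse one from 89 bases before the start.
HSPA5: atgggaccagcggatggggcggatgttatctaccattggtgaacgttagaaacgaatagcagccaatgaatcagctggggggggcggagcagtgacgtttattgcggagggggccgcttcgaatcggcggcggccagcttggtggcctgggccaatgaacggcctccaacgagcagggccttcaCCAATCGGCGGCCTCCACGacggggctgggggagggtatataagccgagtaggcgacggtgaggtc
CRELD2: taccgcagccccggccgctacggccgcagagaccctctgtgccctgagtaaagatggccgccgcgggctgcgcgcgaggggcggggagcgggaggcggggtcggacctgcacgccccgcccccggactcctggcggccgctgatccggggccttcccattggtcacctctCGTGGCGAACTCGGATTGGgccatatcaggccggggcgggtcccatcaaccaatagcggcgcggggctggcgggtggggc
HSP90B1: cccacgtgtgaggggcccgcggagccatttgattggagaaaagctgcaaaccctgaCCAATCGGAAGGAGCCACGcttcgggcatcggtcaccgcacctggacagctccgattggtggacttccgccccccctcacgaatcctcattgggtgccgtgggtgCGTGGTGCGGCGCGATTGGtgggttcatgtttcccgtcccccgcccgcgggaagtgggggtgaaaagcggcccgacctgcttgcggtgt

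HSPA5 read 6.07, 5.17, 5.57 and 4.95 in the oleic acid samples and 7.28, 7.16, 7.20 and 6.94 in the stearic acid samples (log2 normalised intensity throughout). The groups did not overlap, and the difference was -1.70 ± 0.30 (SE, n = 4 and 4, adjusted p = 0.00191), 3.26-fold lower with oleic acid. CRELD2 had a difference of -2.25 (adjusted p = 0.00671), whereas HSP90B1 had a difference of 0.36 (adjusted p = 0.162) with 2 motifs in its promoter. Of the 6 tested members with the motif, 3 were called lower and 0 higher with a median difference of -0.38, and of the 15 tested members without it, 10 were called lower and 1 higher with a median of -1.22. A match describes the letters of the window and is not evidence of binding.

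In the whole list of chaperones and unfolded protein response genes, 14 of 22 tested members were called lower and 1 higher with oleic acid, beside 18.4% and 21.0% of all probes. All probes include those without a symbol. With only the brightest probe of each symbol tested, as the lists use, 3134 of 12085 were called lower and 2132 higher, so more were lower than higher. The median difference of the list was -1.06, against 0.21 over all probes tested, with or without a symbol. DNAJB9, a DnaJ co-chaperone induced by the IRE1 branch, had the largest difference of the list. Its values were 4.26, 5.02, 4.24 and 4.05 with oleic acid and 7.98, 7.84, 7.96 and 7.81 with stearic acid, which is 11.3-fold lower with oleic acid (-3.50 ± 0.40, adjusted p = 0.000596). HYOU1, a chaperone of the HSP70 family, differed by -1.89 ± 0.32 (adjusted p = 0.00153). PDIA4, SEC61B, MANF, SDF2L1 and SYVN1 were also called lower. The exception was EIF2AK3, the stress kinase PERK, which was higher with oleic acid by 1.38 (adjusted p = 0.00924). XBP1 (0.03), CALR (-0.22) and ATF6 (0.54) were not called.

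The range gap of the list had a median of -0.43 and its blocked difference a median of -0.25. At 8 of the 15 called members the elaidic acid samples split by range. PDIA4 had a range gap of -2.49 and a blocked difference of -0.02, and SDF2L1 had -1.85 and 0.21. DNAJB9 had a blocked difference of -1.84 ± 0.47 (unadjusted p = 0.00152), HYOU1 one of -1.14 ± 0.50 and HSPA5 one of -1.12 ± 0.49, and no probe had a blocked adjusted p under 0.393. PDIA3, a disulfide isomerase, had a range gap of 0.03, a difference of -0.75 (adjusted p = 0.0144) and all 4 elaidic acid samples on the stearic acid side.

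The enzymes of cholesterol synthesis were mostly lower with oleic than with stearic acid, and the elaidic acid samples of both ranges mostly lay on the stearic acid side. Of 15 tested enzymes, 12 were called lower and 0 higher with oleic acid (median difference -1.47, range gap -0.66). At 11 of the 12 all 4 elaidic acid samples lay on the stearic acid side. Squalene epoxidase (SQLE) read 7.92, 7.70, 7.64 and 8.01 with oleic acid and 9.58, 9.06, 9.79 and 9.29 with stearic acid, a difference of -1.61 ± 0.26 (adjusted p = 0.00124) or 3.06-fold. EBP, the sterol isomerase of the late pathway, read 6.91, 6.36, 6.12 and 6.68 with oleic acid and 8.28, 7.66, 8.03 and 8.04 with stearic acid (-1.49 ± 0.22, adjusted p = 0.000999). Neither gene overlapped between the groups.

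The range gap of EBP was -0.07, since the elaidic acid samples read 7.64 and 7.76 in range A and 8.01 and 7.52 in range B, and its blocked difference was -1.42 ± 0.37 (unadjusted p = 0.00185). Mevalonate kinase (MVK) had a range gap of 0.13, a difference of -1.21 (adjusted p = 0.00289) and a blocked difference of -1.34 ± 0.40 (unadjusted p = 0.00468). For CYP51A1, lanosterol demethylase, the values were 9.14, 9.21, 9.01 and 8.98 with oleic acid and 10.81, 10.16, 10.54 and 10.69 with stearic acid (-1.47 ± 0.21, adjusted p = 0.000989), and the blocked difference was -1.01 ± 0.32. A dimmer CYP51A1 probe went the other way, with a difference of 1.26 (adjusted p = 0.0129), a range gap of 1.01 and a blocked difference of 0.26. FDFT1, IDI1 and DHCR7 had larger differences of -2.94, -1.76 and -1.70, with range gaps of -2.23, -1.41 and -1.11. MVD (0.43), FDPS (0.49) and TM7SF2 (-0.53) were not called. The blocked median of the list was -0.67, with 12 of 15 below 0 and 4 at an unadjusted p under 0.05.

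The 4 control samples, which lie in range A with oleic acid, read 7.83 to 8.44 for SQLE and 6.85 to 7.06 for EBP. The mean over the 15 enzymes was 8.01 to 8.54 in the oleic acid samples, 8.34 to 8.81 in the controls, 9.21 to 9.53 in the stearic acid samples, 9.39 in both elaidic acid samples of range A and 10.01 and 9.87 in those of range B. Both elaidic acid samples in the array range of oleic acid were thus above every oleic acid sample and within the stearic acid range. Those of range B were above every stearic acid sample. The consensus sterol regulatory element TCACNCCAC, found on either strand in 310 of the 35116 promoters (0.883%), matched in 0 of the 15 list members that had a promoter in the table, which says only that these letters are not in that window.

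In the list of SREBP control and sterol uptake, 4 of 10 tested members were called lower and 1 higher (50%, against 39.5% of all probes). At 3 of these 5 all 4 elaidic acid samples lay on the stearic acid side. The median difference was -0.70, the range gap was -0.69 and the blocked median was 0.15. SREBF2, the factor that drives cholesterol synthesis, differed by -1.32 ± 0.38 (adjusted p = 0.0161) and by -1.70 on a second, dim probe, INSIG2 by -2.14 ± 0.67 (adjusted p = 0.0231) and the site-1 protease MBTPS1 by -1.85 ± 0.59 (adjusted p = 0.0247). Their blocked differences were -0.45, 0.22 and 0.09. Oleic acid replicate 4 had the lowest value at all of them (7.95, 4.32 and 7.53), and without it no member of the list was called (adjusted p = 0.0579, 0.0845 and 0.0875). Without stearic acid replicate 1 or 3 the list held 1 call, and without stearic acid replicate 4 it held 3. INSIG1 was at or below 0 in 2 samples and was not tested.

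**Figure D2:**
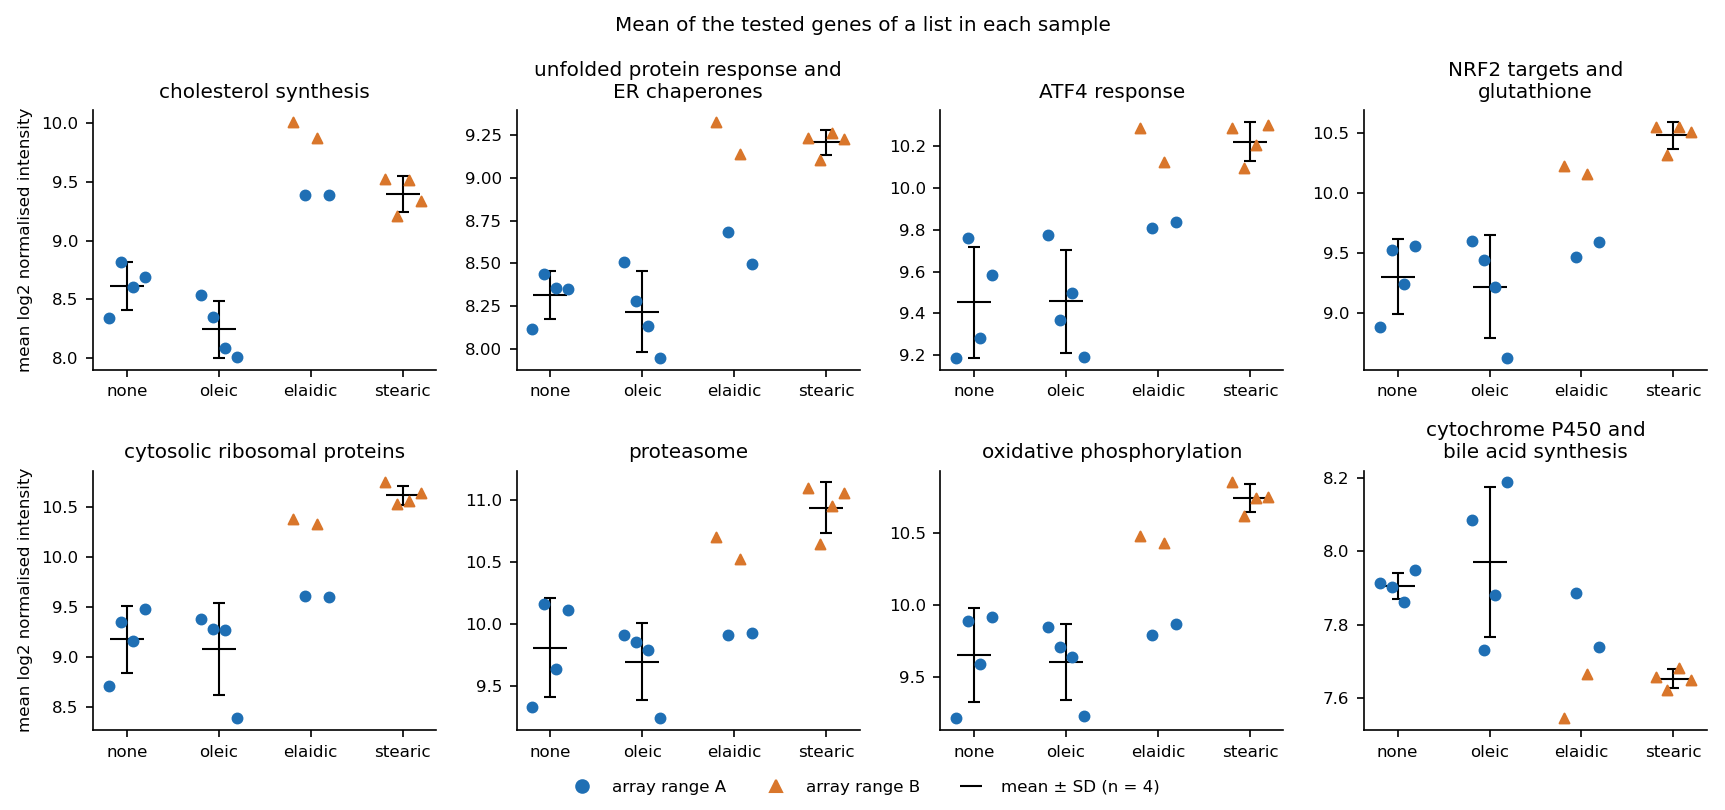
Each panel shows the mean log2 normalised intensity of a gene list in each of the 16 samples, by group (control, oleic, elaidic and stearic acid), with colour marking the array range. The elaidic acid samples separate by range in the cholesterol synthesis and the oxidative phosphorylation panel. In the cholesterol synthesis panel those of both ranges lie above the 4 oleic acid samples (8.01 to 8.54). In the oxidative phosphorylation panel those of range A (9.79 and 9.87) lie near the oleic acid samples (9.23 to 9.85), and those of range B read 10.48 and 10.43.

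The amino acid stress response that ATF4 controls held calls in both directions. Of 20 tested genes, 10 were lower and 4 higher with oleic acid, with a median difference of -0.69, a range gap of -0.29 and a blocked median of -0.38. TRIB3, a pseudokinase that inhibits AKT, read 10.94, 10.39, 10.36 and 9.89 with oleic acid and 12.18, 11.92, 12.14 and 12.18 with stearic acid. These groups did not overlap, and the difference of -1.71 ± 0.26 (adjusted p = 0.00106) is 3.27-fold. All 4 elaidic acid samples, at 12.20, 11.76, 12.01 and 11.88, lay on the stearic acid side, and the blocked difference was -1.42 ± 0.44 (unadjusted p = 0.00588). TRIB3 was the only 1 of the 14 called members with this position, and at 9 of them the elaidic acid samples split by range.

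PHGDH, the first enzyme of serine synthesis, read 9.46, 8.74, 8.55 and 8.54 with oleic acid and 10.18, 10.38, 10.28 and 10.26 with stearic acid (-1.46 ± 0.22, adjusted p = 0.00106, range gap -0.22). GDF15, a secreted stress cytokine, read 9.74, 8.98, 9.31 and 8.46 against 11.36, 11.13, 11.16 and 11.56 (-2.18 ± 0.34, adjusted p = 0.00111), or 4.53-fold lower with oleic acid, with a blocked difference of -1.63 ± 0.56. In both genes the stearic acid samples were the highest of all 16 samples. The serine and folate enzymes PSAT1 (-2.07) and MTHFD2 (-2.02) and the amino acid transporter SLC7A5 (-1.93) were called lower, with range gaps of -1.18, -1.75 and -0.84. Asparagine synthetase, ASNS, read 13.23 to 14.18 with oleic acid and 14.53 to 14.88 with stearic acid (-0.92 ± 0.28, adjusted p = 0.0199), and was not called without oleic acid replicate 4 (adjusted p = 0.0702) or stearic acid replicate 4 (adjusted p = 0.0539).

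The factor ATF3 went the other way, at 11.12, 10.77, 10.67 and 10.91 with oleic acid and 10.30, 10.14, 10.34 and 10.20 with stearic acid. The groups did not overlap, but the difference was small (0.62 ± 0.20, adjusted p = 0.0285), and the call was lost without oleic acid replicate 1 or 4 or any 1 of the stearic acid replicates (adjusted p from 0.0506 to 0.0633), and without normalisation between arrays its sign turned (-0.23). PPP1R15A, which reverses the translational arrest of this response, was higher by 1.45 (adjusted p = 0.00393) with a range gap of 0.88, and CHAC1 and SHMT2 were higher by 1.23 and 0.81. ATF4 itself (-0.01), DDIT3 (-0.11, adjusted p = 0.814) and STC2 (-0.13) were not called. The 4 higher calls of this list were 1 without oleic acid replicate 4, and 2 without oleic acid replicate 1 or without any 1 of the stearic acid replicates.

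Genes of the oxidative stress response, which the factor NRF2 drives, were mostly lower with oleic acid. Of 16 tested, 9 were called lower and 1 higher, with a median difference of -1.45, a range gap of -0.68 and a blocked median of -0.88. Heme oxygenase 1, HMOX1, read 6.10, 5.52, 5.18 and 5.60 with oleic acid and 8.61, 8.07, 8.59 and 7.93 with stearic acid, 6.49-fold lower with oleic acid (-2.70 ± 0.35, adjusted p = 0.000798). Its elaidic acid values were 6.79 and 6.23 in range A and 7.87 and 7.73 in range B, and the blocked difference was -1.41 ± 0.46 (unadjusted p = 0.00779). Transketolase, TKT, was the called member with the smallest range gap (-0.09) and differed by -1.03 (adjusted p = 0.00255), with all 4 elaidic acid samples on the stearic acid side. TKT was the only 1 of the 10 called members with this position, and at 5 of them the elaidic acid samples split by range.

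The glutathione enzymes were among these calls. GPX2, a glutathione peroxidase, read 8.92 to 10.06 with oleic acid and 11.21 to 11.72 with stearic acid (-1.87 ± 0.29, adjusted p = 0.00123). GPX4, which reduces lipid peroxides, differed by -2.05 (adjusted p = 0.00141), glutathione reductase GSR by -2.03 (adjusted p = 0.00178) and the microsomal transferase MGST1 by -2.15 ± 0.34 (adjusted p = 0.00124). Their blocked differences ran from -1.48 to -1.19. The sulfiredoxin SRXN1 had one of the largest differences of the list (-3.10) and also the largest range gap (-2.91). NFE2L2, which encodes NRF2, had -0.41, and NQO1, one of its best known targets, had 0.16, neither of them called. TALDO1, transaldolase, was higher by 0.76 (adjusted p = 0.0217) and was not called without oleic acid replicate 4 or stearic acid replicate 1 or 4.

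**Figure D3:**
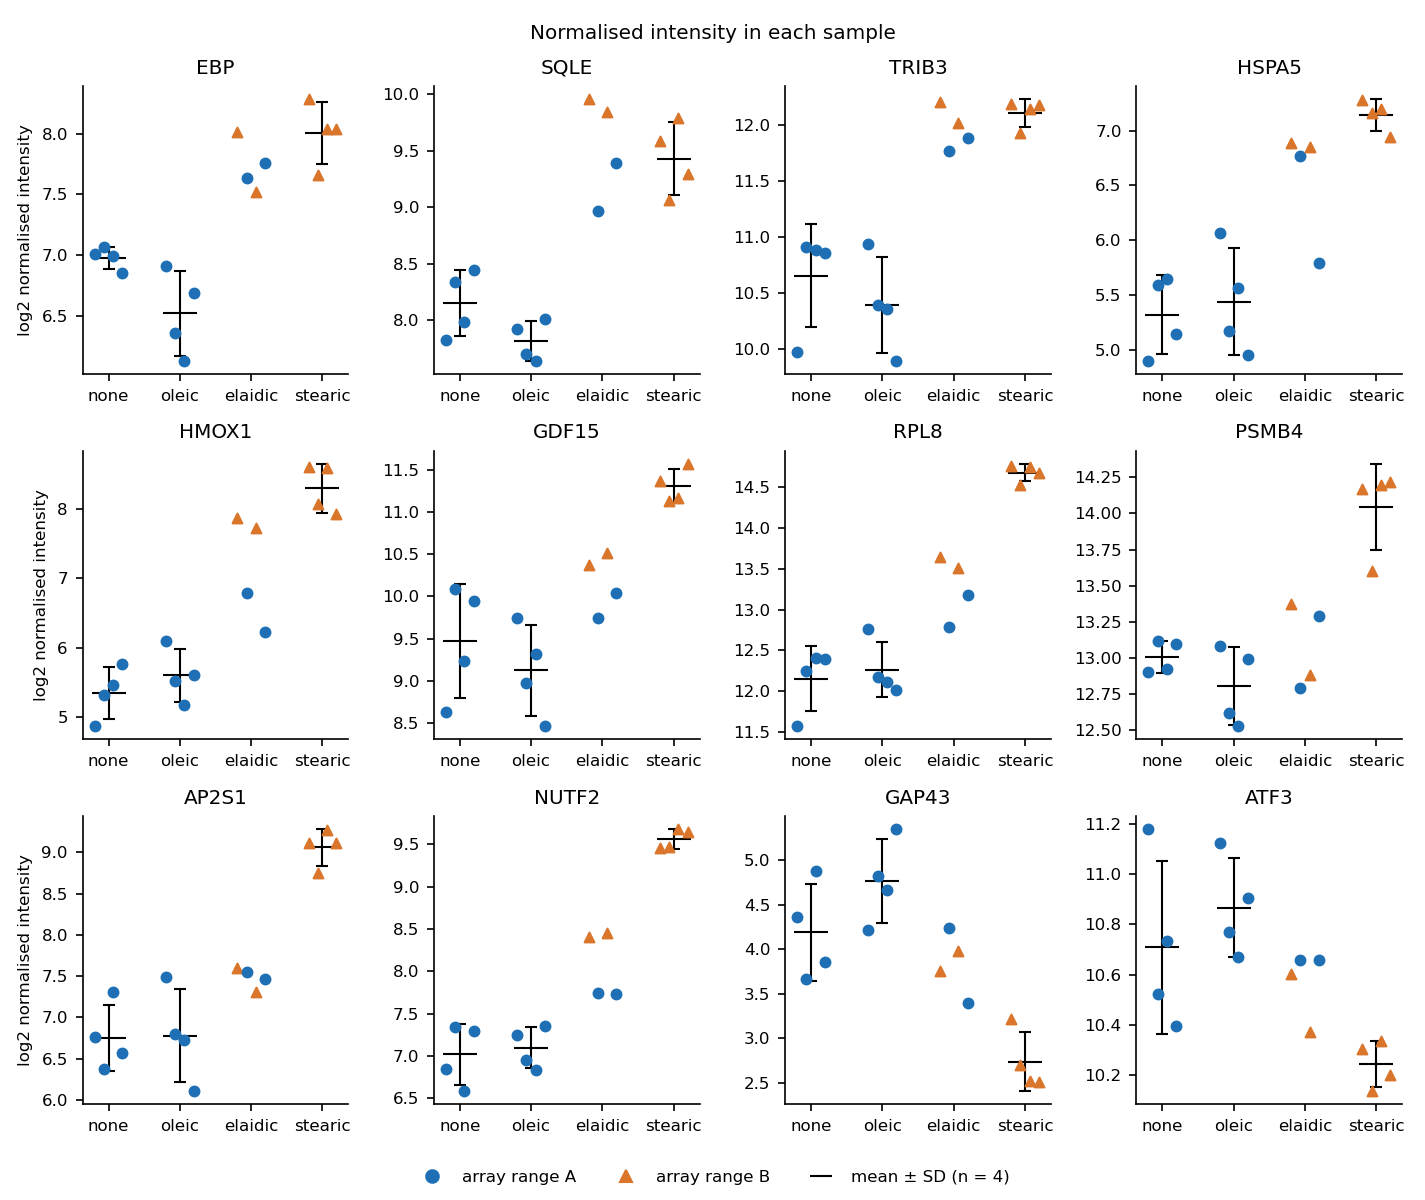
Log2 normalised intensity of 12 genes in each of the 16 samples, by group, with colour marking the array range. EBP, SQLE and TRIB3 show the elaidic acid samples of both ranges near the stearic acid samples, PSMB4 and AP2S1 show them near the oleic acid samples, and HMOX1 shows them apart by range.

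In fatty acid synthesis and elongation 6 of 13 tested genes were called lower and 0 higher (46.2%, against 39.5% of all probes). The median difference was -0.65, the range gap -0.44 and the blocked median -0.12. The largest was the lipogenic factor MLXIPL at -2.88, with a range gap of -3.11. Acetyl-CoA synthetase ACSS2 read 4.69 to 6.43 with oleic acid and 7.79 to 8.21 with stearic acid (-2.32 ± 0.50, adjusted p = 0.00454). The elongase ELOVL1 (-1.46 ± 0.31, adjusted p = 0.00411) and HSD17B12, an enzyme of chain elongation, (-1.75 ± 0.47, adjusted p = 0.0119) had blocked differences of -0.44 and -0.12. ELOVL6, which lengthens saturated chains to stearate, was not called on either probe (-0.65 with adjusted p = 0.0633, and -0.84 with adjusted p = 0.0522). The first passed without oleic acid replicate 4 (-0.83) and the second without oleic acid replicate 1 (-1.03) or stearic acid replicate 2 (-1.02). Of the desaturases, FADS2 overlapped between the groups (5.93 to 6.75 against 6.01 to 6.43, difference 0.12, adjusted p = 0.756), SCD was at or below 0 in 1 sample and was not tested, and FADS1 was not analysed here.

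In triglyceride synthesis and lipid droplets 4 of 12 were called lower and 0 higher, with a median of -0.59, a range gap of -0.29 and a blocked median of -0.29. The share called, 33.3%, was below the 39.5% of all probes. DGAT2, which joins the last acyl chain to diacylglycerol, read 7.98, 7.90, 7.96 and 7.91 with oleic acid and 8.67, 8.44, 8.56 and 8.35 with stearic acid, a small difference of -0.57 ± 0.18 (adjusted p = 0.0251) without overlap. Its elaidic acid samples lay on the stearic acid side (8.41 to 8.86), with a range gap of 0.28 and a blocked difference of -0.85 ± 0.29 (unadjusted p = 0.0106). The call was lost without oleic acid replicate 4 or stearic acid replicate 1 or 3 (-0.56, -0.51 and -0.55). The droplet coat protein PLIN2, listed in the table as ADFP, overlapped between the groups (12.69 to 13.08 against 12.93 to 13.52) and was not called (-0.32, adjusted p = 0.224). AGPAT2 (-0.70, adjusted p = 0.0376), LPIN1 (-0.96) and LPIN3 (-1.31, adjusted p = 0.0177) were the other calls, and a second, dimmer LPIN3 probe had a difference of 0.07. AGPAT2 was not called without oleic acid replicate 2 or 3 or stearic acid replicate 1, 3 or 4 (-0.74 to -0.56), nor LPIN3 without oleic acid replicate 4 (-1.12). The list held 1 call without oleic acid replicate 4 or stearic acid replicate 1 or 3, and 2 without oleic acid replicate 3 or stearic acid replicate 4.

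Of 15 tested genes of phospholipid synthesis and remodelling, 1 was called higher and 5 lower with oleic acid (median -0.52, range gap -0.14, blocked median -0.23). These calls were 40% of the list, near the 39.5% of all probes. The higher one was LPCAT2, an acyltransferase that rebuilds phosphatidylcholine, listed as AYTL1. It read 11.63, 11.56, 11.96 and 12.27 with oleic acid and 9.97, 10.44, 10.47 and 10.29 with stearic acid, 2.95-fold higher with oleic acid (1.56 ± 0.24, adjusted p = 0.00118). Its range gap was 0.42 and its blocked difference 1.14 ± 0.40 (unadjusted p = 0.0121). Its relative LPCAT1, listed as AYTL2, went the other way (-1.32 ± 0.27, adjusted p = 0.00395) with a range gap of -0.92. LPCAT3 was not called (-0.52). The lower calls of this list numbered 1 without oleic acid replicate 4 or stearic acid replicate 1, 2 without stearic acid replicate 3 or 4, and 3 without oleic acid replicate 2 or stearic acid replicate 2, and CDS2 (-1.41, adjusted p = 0.0232) was among those lost without oleic acid replicate 4 or stearic acid replicate 1.

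Stearoyl-CoA and palmitoyl-CoA feed sphingolipid synthesis, and 6 of 11 tested genes of that route were called lower with oleic acid and 0 higher (median -0.93, range gap -0.96). SPTLC2, a subunit of the serine palmitoyltransferase that starts the pathway, read 8.86, 8.49, 8.55 and 9.38 with oleic acid and 10.04, 9.52, 9.82 and 9.62 with stearic acid (-0.93 ± 0.24, adjusted p = 0.00995). Its range gap was -0.03. The glucosylceramide synthase UGCG (-1.94 ± 0.45, adjusted p = 0.00659) and ceramide synthase 4, listed as LASS4 (-1.76 ± 0.43, adjusted p = 0.00798), had range gaps of -1.63 and -0.84. The list held 3 lower calls without stearic acid replicate 1 or 4.

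In fatty acid oxidation 7 of 17 were called lower and 1 higher (median -0.35, range gap -0.46, blocked median near 0), and the median was -0.66 without stearic acid replicate 1. The share called, 47.1%, stands beside 39.5% of all probes. PPARA, the nuclear receptor that fatty acids activate, was the higher one, at 10.59, 10.43, 10.29 and 11.78 with oleic acid and 9.73, 9.28, 9.90 and 9.48 with stearic acid (1.17 ± 0.30, adjusted p = 0.0104, blocked 0.73). A second PPARA probe had 0.92 (adjusted p = 0.0248) and another, dim one 0.08. Its classical targets CPT1A (0.44, adjusted p = 0.109), ANGPTL4 (0.69, adjusted p = 0.0531, and 0.88 with adjusted p = 0.0278 without stearic acid replicate 2) and PDK4 (0.75 and 0.46 on its probes) were not called, and their groups overlapped. The peroxisomal thiolase ACAA1 had a difference of -3.33 (adjusted p = 0.00317) and a range gap of -2.90, and HADHA, of the mitochondrial trifunctional protein, a difference of -1.23 (adjusted p = 0.00817). Lower calls numbered 4 without oleic acid replicate 4 or stearic acid replicate 1 or 3.

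For the uptake and binding of fatty acids, 5 of 9 were called lower and 0 higher (median -0.77, range gap -0.93). The liver fatty acid-binding protein FABP1 read 12.51, 12.10, 12.36 and 11.03 with oleic acid and 14.14, 13.95, 13.94 and 13.80 with stearic acid, 3.88-fold lower with oleic acid (-1.96 ± 0.43, adjusted p = 0.00526). A second probe had -2.22 (adjusted p = 0.00709). All 4 elaidic acid samples, at 13.94 to 14.96, lay on the stearic acid side, and the blocked difference was -1.03 ± 0.71. The acyl-CoA-binding protein DBI (-1.78) and the transporter SLC27A2 (-1.67) were also called. The count was 3 without stearic acid replicate 1 or 3.

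Of 10 tested lipoprotein genes, 8 were called lower and 0 higher with oleic acid (median -1.02, range gap -0.61). APOH, a phospholipid-binding plasma protein, read at most 12.53 with oleic acid and 13.46 to 13.54 with stearic acid (-1.18 ± 0.22, adjusted p = 0.00267), with elaidic acid at 13.13 to 13.77 and a blocked difference of -0.86 ± 0.37. APOA4 (-1.24 ± 0.32, adjusted p = 0.011) and MTTP, which loads lipid onto apolipoprotein B (-0.70 ± 0.21, adjusted p = 0.0207), also had all 4 elaidic acid samples on the stearic acid side. APOB itself was not called (-0.36, adjusted p = 0.152). The list held 2 calls without stearic acid replicate 3 and 3 without oleic acid replicate 4 or stearic acid replicate 1 or 4, and MTTP was lost without oleic acid replicate 2 or stearic acid replicate 1 or 3 (-0.67 to -0.63).

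Other plasma proteins were mixed. In coagulation 7 of 17 were called lower and 1 higher (47.1%, against 39.5% of all probes). The lower calls were led by prothrombin F2 (-2.22, adjusted p = 0.00106) and the fetuin AHSG (-1.75, adjusted p = 0.00251), and factor VII (F7) was higher by 1.07. Kininogen KNG1 read 8.79 to 9.28 with oleic acid and 9.40 to 9.68 with stearic acid and was not called (-0.48, adjusted p = 0.0858). In the acute phase list 6 of 10 were called lower and 0 higher, with a median of -1.29 against a range gap of -1.21 and a blocked median of 0.04. Without oleic acid replicate 4, which had the lowest mean in both lists (8.55 and 6.06), the counts were 4 lower and 0 higher for coagulation and 3 lower for the acute phase, and without stearic acid replicate 1, 3 or 4 coagulation held 5 lower and 0 higher. Of the NF-kB targets, 2 of 15 were called higher and 3 lower, together 33.3% against 39.5% of all probes, and ICAM1, an adhesion molecule, was lower with a range gap of 0.02 (-1.03, adjusted p = 0.00679) and all 4 elaidic acid samples on the oleic acid side. NF-kB calls numbered 2 without oleic acid replicate 4 or stearic acid replicate 1 and 3 without stearic acid replicate 4.

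Genes of the basal machinery of the cell were also compared. Of 17 tested cytosolic ribosomal proteins, 14 were called lower with oleic acid and 0 higher (median difference -1.54, range gap -0.62, blocked median -0.97), and 6 had an unadjusted p under 0.05 with the block. At 10 of the 14 called members the elaidic acid samples split by range, and at 2 all 4 lay on the stearic acid side. RPL8 read 12.76, 12.17, 12.11 and 12.01 with oleic acid and 14.76, 14.53, 14.74 and 14.68 with stearic acid, 5.33-fold lower with oleic acid (-2.42 ± 0.26, adjusted p = 0.000561). The elaidic acid samples lay between, at 12.78 and 13.18 in range A and 13.64 and 13.51 in range B, and the blocked difference was -1.82 ± 0.40 (unadjusted p = 0.000444). RPL4 had a range gap of -0.06 and a difference of -1.26 (adjusted p = 0.00303). RPL26 (-2.19 ± 0.31) and RPS14 (-2.88 ± 0.45) had range gaps of -0.84 and -1.75, and a second, dim RPL26 probe had a difference of -1.73 and a range gap of -1.57.

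The proteasome, which degrades ubiquitin-tagged proteins, was also mostly lower with oleic acid. Of 26 tested subunits, 19 were called lower with oleic acid and 1 higher (median difference -1.15, range gap -0.43, blocked median -0.65). At 9 of the 20 called subunits the elaidic acid samples split by range. At 6 of the called subunits all 4 elaidic acid samples lay on the oleic acid side, with 0 on the stearic acid side. PSMB4, a subunit of the core particle, read 13.08, 12.62, 12.53 and 12.99 with oleic acid and 14.17, 13.60, 14.19 and 14.21 with stearic acid. Its elaidic acid values of 13.38, 12.80, 12.89 and 13.29 were all below the lowest stearic acid value, the difference was -1.24 ± 0.22 (adjusted p = 0.00212) and the range gap -0.09. PSMB3 (-1.55 ± 0.24, adjusted p = 0.00123), PSMB1 (-0.96), PSMB2 (-0.81), PSMC4 (-1.05) and PSMD2 (-1.43) were the others of this kind. PSMD3 (-1.60 ± 0.29, adjusted p = 0.00217) split by range, and PSMA4 was higher by 1.81 with a range gap of 1.62.

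In oxidative phosphorylation 20 of 31 tested subunits were called lower and 0 higher (median -1.33, range gap -0.66, blocked median -0.54), and at 18 of the 20 the elaidic acid samples split by range. COX5A, of cytochrome c oxidase, read 8.15 to 10.06 with oleic acid and 11.78 to 12.58 with stearic acid (-2.98 ± 0.48, adjusted p = 0.00138), with a range gap of -1.55. The ATP synthase subunit listed as ATP5B had a smaller range gap (-0.35), a difference of -1.41 ± 0.21 (adjusted p = 0.00106) and a blocked difference of -1.06 ± 0.35 (unadjusted p = 0.00814). NDUFS3, of complex I, had a range gap of 0.23 and a difference of -0.86 (adjusted p = 0.0114). Heat shock genes were called lower at 7 of 8 (median -1.34, range gap -0.82), at 3 without oleic acid replicate 4 or stearic acid replicate 1 and at 4 without oleic acid replicate 1 or stearic acid replicate 3 or 4.

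In DNA replication 10 of 27 were called lower and 3 higher (median -0.55, and -0.11 without oleic acid replicate 4). These calls were 48.1% of the list, beside 39.5% of all probes. PCNA, the sliding clamp, read 8.87, 8.57, 8.71 and 8.04 with oleic acid and 11.13, 10.75, 11.32 and 11.12 with stearic acid (-2.53 ± 0.38, adjusted p = 0.00106), and RFC2, of the clamp loader, differed by -2.67 ± 0.40 (adjusted p = 0.00106). Their range gaps were -1.03 and -1.45 and their blocked differences -1.51 ± 0.59 and -1.22 ± 0.54. In mitosis, with a median of -0.40 (-0.26 without stearic acid replicate 3), 5 of 23 were called lower and 0 higher. That share, 21.7%, was below the 39.5% of all probes. CENPA differed by -3.20 ± 0.53 (adjusted p = 0.00149) and BIRC5 by -1.35 ± 0.27 (adjusted p = 0.00313). However, a second BIRC5 probe had 0.40 (adjusted p = 0.299), and a second, dim CENPA probe had -1.29 (adjusted p = 0.264) with a range gap of 1.28. CCNB2, cyclin B2, was at 7.17 to 8.11 with oleic acid and 7.87 to 8.57 with stearic acid, and its call (-0.72, adjusted p = 0.0449) was lost without oleic acid replicate 1, 3 or 4, elaidic acid replicate 1, 3 or 4, or stearic acid replicate 1, 2 or 3 (adjusted p from 0.0507 to 0.129). MKI67, the proliferation marker, was not called (-0.53, adjusted p = 0.0528). Mitosis held 3 calls without oleic acid replicate 1 or 4 or stearic acid replicate 1 or 3.

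**Figure D4:**
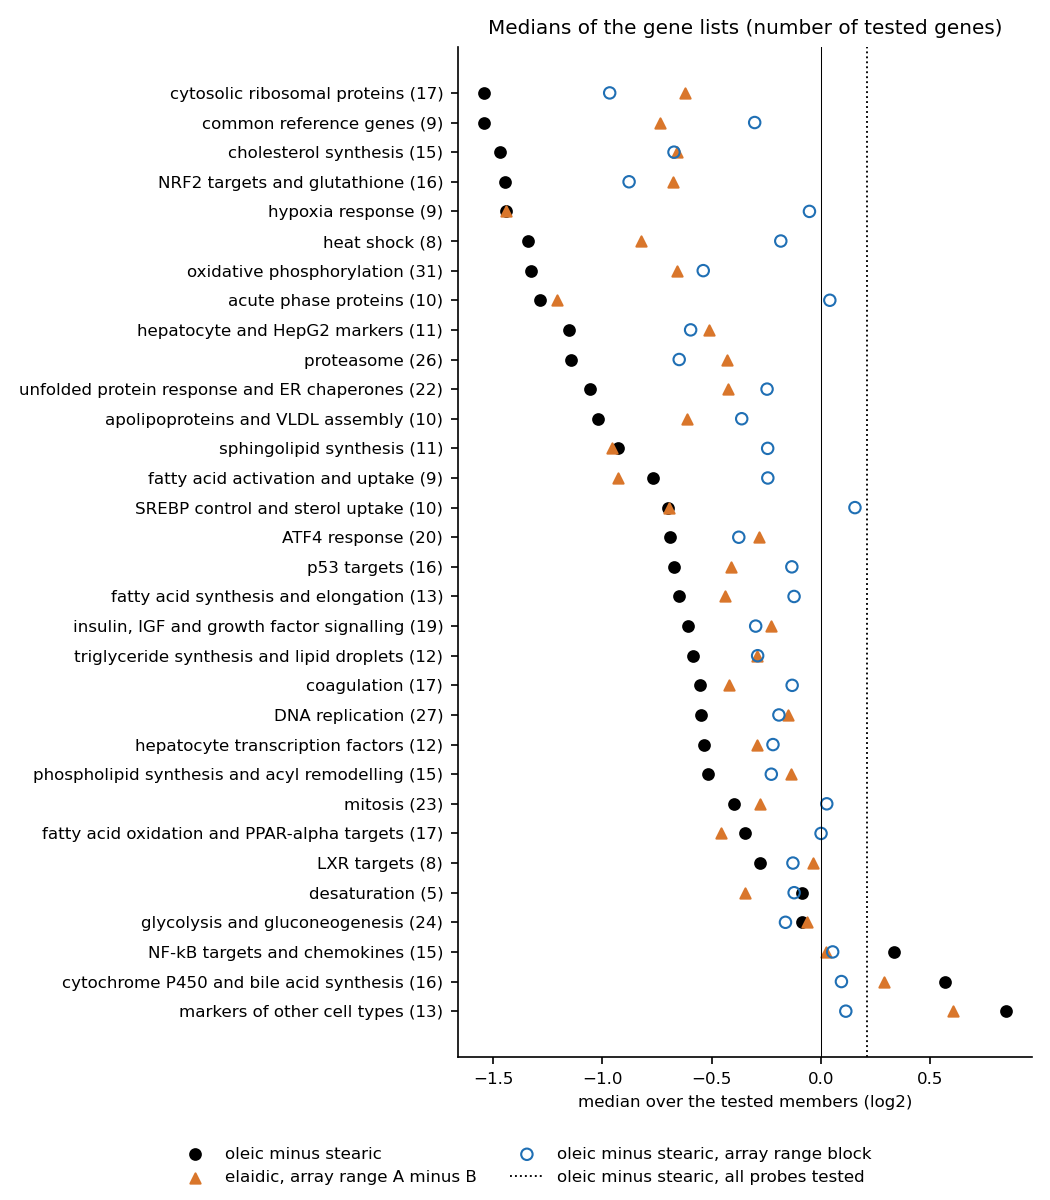
Median oleic minus stearic acid difference of each gene list (log2) beside its median range gap and its median blocked difference, for lists with tested members. Most list medians lie below the value of 0.21 over all probes, with or without a symbol. Those of cytochrome P450 genes (0.57), markers of other cell types (0.84) and NF-kB targets (0.33) lie above it. The blocked median lies farther from 0 than the unblocked one for glycolysis and gluconeogenesis (-0.16 against -0.09) and desaturation (-0.12 against -0.09), and nearer to 0 for the other lists.

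The cytochrome P450 and bile acid list ran the other way, with 7 of 16 called higher and 2 lower with oleic acid (median 0.57, range gap 0.29, blocked median 0.09), and the median was 0.86 without oleic acid replicate 2. CYP3A4, the main drug-metabolising P450 of adult liver, was higher by 1.38 (adjusted p = 0.00591) with a range gap of 0.62, CYP24A1 by 1.36 (range gap 0.47) and CYP3A5 by 1.20 (range gap 0.26). CYP2E1 was higher by 1.28 with a range gap of 1.17. CYP27A1, of bile acid synthesis, and POR, the electron donor of microsomal P450 enzymes, were called lower (-2.52 and -1.67). The higher calls were 4 without oleic acid replicate 4 or stearic acid replicate 1 or 3.

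Marker lists differed between the groups as well. Of 11 tested hepatocyte and HepG2 markers, 7 were called lower and 0 higher with oleic acid (median -1.15, range gap -0.51), among them transferrin TF (-3.18, adjusted p = 0.00106) and AFP (-2.13, adjusted p = 0.00885). Their mean ran from 11.05 to 12.04 in the oleic acid samples, from 12.96 to 13.17 in the stearic acid samples and from 11.10 to 12.23 in the controls. Of 13 tested markers of other cell types, 6 were called higher and 0 lower (46.2%, against 39.5% of all probes), with a median of 0.84 and a range gap of 0.61. Their mean ran from 6.62 to 7.47 with oleic acid, from 6.46 to 6.52 with stearic acid and from 6.71 to 7.03 in the controls. The count of higher calls was 3 without oleic acid replicate 4 or stearic acid replicate 1. Of 9 common reference genes, 7 were called lower and 2 higher, B2M at -2.36 and PPIA at 1.15. The arrays of oleic acid were also dimmer (median intensity 34.7 ± 13.8 against 57.0 ± 13.2, SD, n = 4 each), and 53.2% of the brighter and 25.7% of the dimmer probes were called. The part of brightness and of these lists in the gene results was not tested.

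Of the 8 largest in each direction among called, named probes without overlap, 10 (62.5%) had a mean intensity under 50, against 33.4% of all probes tested. The largest of all was SMARCAD1, a chromatin remodeller, at 3.08, -1.74, 2.75 and -0.26 with oleic acid and 8.40, 8.56, 8.88 and 8.60 with stearic acid (-7.66 ± 1.36, adjusted p = 0.00208). Its elaidic acid samples read 3.05 and 3.27 in range A and 8.88 and 7.64 in range B, so that most of the difference was also the range gap. HIGD1A (-4.71), FBXL12 (-4.63), PKP3 (-4.42), LSM4 (-4.08), DLC1 (-4.03), WFS1 (-4.01) and EIF4A2 (-3.97) followed. At PKP3, oleic acid replicate 4 read -4.49 and the others 5.31 to 5.52, and without it the difference was -1.92 and still called (adjusted p = 0.0431). The PKP3 call was lost without any 1 of the stearic acid replicates (-4.56 to -4.32), and that of EIF4A2 without oleic acid replicate 4 (-3.16). Brighter probes of LSM4 and EIF4A2 had differences of 0.34 and 0.35 and were not called, and another HIGD1A probe had -1.62 (adjusted p = 0.066). FBXL12 was -2.94 without oleic acid replicate 2.

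In the other direction ZNHIT1 led at 3.52 ± 1.04 (adjusted p = 0.0184), with stearic acid replicate 4 at -3.84 and a difference of 2.21 without it. CHRNA2, a subunit of the nicotinic acetylcholine receptor, read 6.25, 5.33, 5.86 and 6.83 with oleic acid and 0.82, 3.61, 3.97 and 3.31 with stearic acid (3.14 ± 0.67, adjusted p = 0.00446), with a range gap of 0.34. RNF24 (2.86), RBMY2FP (2.84), SNX19 (2.65), IGFL3 (2.51), CPM (2.48) and MON1B (2.46) followed, of which IGFL3 and MON1B split by range. RNF24 was not called without stearic acid replicate 2 (2.10), and CPM had 1.49 without stearic acid replicate 3 and was not called without oleic acid replicate 4 (2.34). Other MON1B probes had -3.61 and 0.62.

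Among the 1254 called probes with a small or opposite range gap, the largest named differences without overlap were, higher with oleic acid, CHRNA2, RNF24, CAMSAP1 (2.13), GAP43 (2.02), C6orf65 (1.95) and KRTAP1-5 (1.83). Lower with oleic acid were TMEM102 (-3.04), APOO (-3.03), C6orf106 (-2.87), SPECC1 (-2.79), IL17RA (-2.73) and SOHLH1 (-2.69). Second probes of C6orf106 (0.24, adjusted p = 0.497) and C6orf65 (1.00, adjusted p = 0.556) were not called. GAP43, a growth-associated protein of neurons, was low throughout, at 4.21, 4.83, 4.67 and 5.35 with oleic acid and 3.22, 2.70, 2.52 and 2.52 with stearic acid (2.02 ± 0.31, adjusted p = 0.00111, blocked 2.07 ± 0.55, unadjusted p = 0.0019). KRTAP1-5 was brighter, at 9.21 to 10.95 against 7.84 to 8.91 (1.83 ± 0.36, adjusted p = 0.00324). Single libraries enlarged the difference at several of the others. C6orf106 and SPECC1 were -1.72 and -1.66 without oleic acid replicate 1 and were still called (adjusted p = 0.0265 and 0.00402). SOHLH1 was -1.29 without oleic acid replicate 2 and was still called (adjusted p = 0.0381). APOO was not called without oleic acid replicate 1 or 4 or stearic acid replicate 1 (-2.12, -2.47 and -2.94), C6orf106 and C6orf65 without stearic acid replicate 1 (-2.56 and 1.35), CAMSAP1 without oleic acid replicate 4 (1.80), and SOHLH1 without oleic acid replicate 4 or any 1 of the stearic acid replicates (-3.03 to -2.45).

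The smallest blocked p-values among genes lower with oleic acid belonged to NUTF2, APOBEC3D, AP2S1 and SFN. NUTF2, the import factor of the small GTPase Ran, read 7.25, 6.95, 6.83 and 7.35 with oleic acid and 9.45, 9.47, 9.68 and 9.64 with stearic acid (-2.46 ± 0.24, adjusted p = 0.000561), with a blocked difference of -1.78 ± 0.36 (unadjusted p = 0.000197). AP2S1, the small subunit of the clathrin adaptor AP-2, read 7.49, 6.79, 6.72 and 6.10 with oleic acid and 9.11, 8.75, 9.27 and 9.11 with stearic acid (-2.29 ± 0.28, adjusted p = 0.000625), 4.88-fold lower with oleic acid. Its elaidic acid samples, at 7.60, 7.55, 7.31 and 7.47, had a range gap of 0.05, and the blocked difference was -2.34 ± 0.48 (unadjusted p = 0.00025). The 14-3-3 protein SFN (-1.75 ± 0.24, blocked -1.93 ± 0.40) and the cytidine deaminase APOBEC3D (-1.82 ± 0.27, blocked -2.24 ± 0.46) likewise had all 4 elaidic acid samples on the oleic acid side. Second probes of NUTF2 (-3.52, range gap -2.67) and SFN (-2.24, range gap -1.25) were also called and had smaller blocked differences, of -0.85 and -0.99. The blocked adjusted p of NUTF2, AP2S1 and SFN was 0.551.

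Among genes higher with oleic acid in the blocked fit, the smallest p-values belonged to CCDC45, ZNF330, DNAJB14 and GPRASP1, all with a range gap below 0. CCDC45 had a difference of -0.44, a range gap of -3.29 and a blocked difference of 2.85 (unadjusted p = 1.71e-05, adjusted p = 0.393). ZNF330 had -2.41, -5.02 and 2.61, and DNAJB14 had 1.01, -1.96 and 2.97. Only GPRASP1 of these 4 was called without the block, at 0.97 ± 0.28 (adjusted p = 0.0176) with a range gap of -0.84 and a blocked difference of 1.81, and it was not called without stearic acid replicate 1 (0.83). A second GPRASP1 probe had 0.76 (adjusted p = 0.0467) with a range gap of 0.58 and a blocked difference of 0.18.

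**Figure D5:**
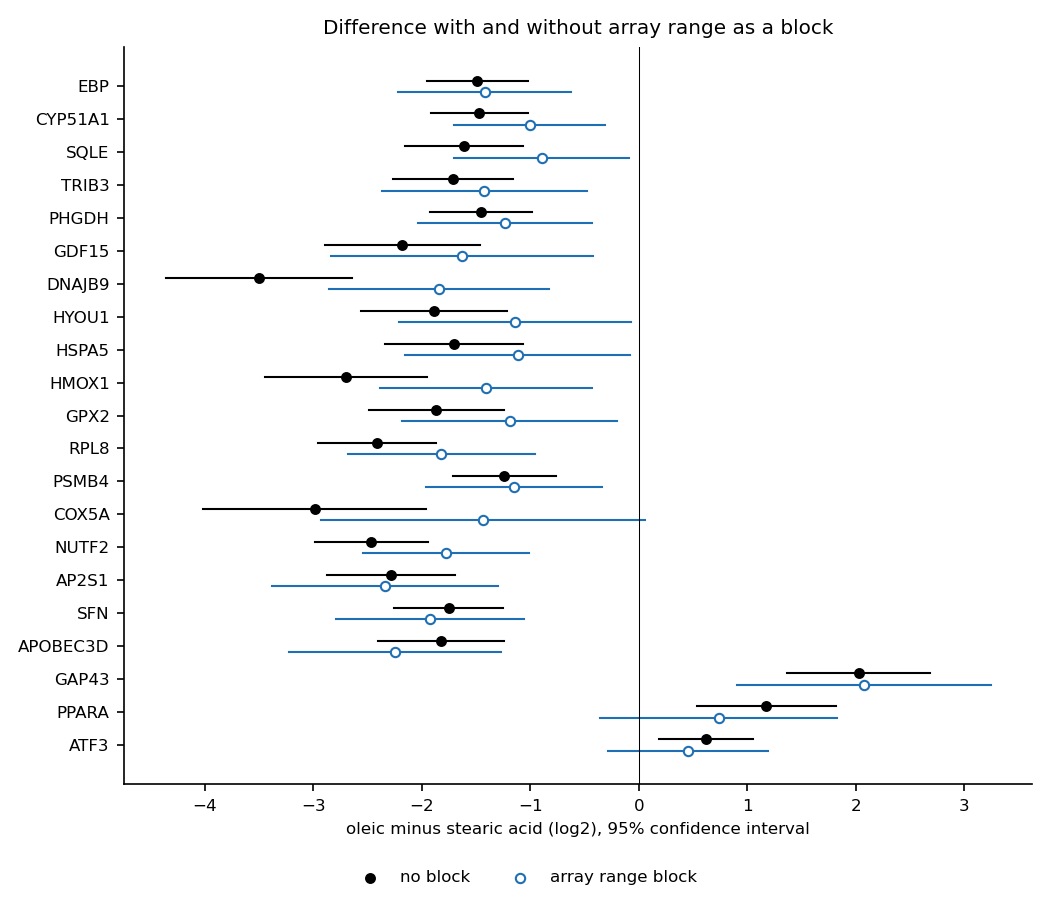
Oleic minus stearic acid difference (log2) with its 95% confidence interval for 21 genes, without (filled) and with (open) array range as a block. The blocked intervals are wider. That of EBP runs from -2.22 to -0.62 and that of RPL8 from -2.68 to -0.96, both below 0, whereas that of ATF3 runs from -0.29 to 1.19. The intervals are not adjusted for the number of probes. With the block, limma called 0 of 22939 probes, with a smallest adjusted p of 0.393.

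Some probes were ordered in steps, with all oleic acid samples apart from the elaidic acid samples of range A and the elaidic acid samples of range B apart from all stearic acid samples in the same direction. There were 271 such probes among the 1254 with a small or opposite range gap, 117 higher and 154 lower with oleic acid, 179 of them named. Lower ones included SERPINA6, the corticosteroid-binding globulin (-1.38, adjusted p = 0.000999), PHGDH and the hepatic lipase LIPC (-0.64, adjusted p = 0.0344, with an opposite range gap of 0.28). Higher ones included the ubiquitin ligase NEDD4 (1.45, adjusted p = 0.00129) and the motor protein KIF5C (1.33, adjusted p = 0.00452, with an opposite range gap of -0.37). These genes were picked from the set after their values were seen.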

How the data were processed

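Total RNA from 16 HepG2 samples was amplified and labelled with Cy5 for 1-colour arrays, per the labels. The deposited intensity values are linear and background-subtracted, with no scaling between samples, as the values show; how the authors joined the 2 arrays of a sample and what background method they used is not given in the sources used here. Precision is limited by how many arrays there were. Gene symbols come from GEO's platform annotation, which named 17397 of 30968 probes.

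Any probe that was not above 0 in all 16 samples was left out (8029, or 25.9%). The rest were log2-transformed and quantile normalised. Oleic acid minus stearic acid was fitted to all 16 samples by lmFit and eBayes of limma 3.58.1 (R 4.3.3), two-sided, with Benjamini-Hochberg adjustment over all 22939 probes. Unadjusted p-values of the blocked fit come from the same limma model with array range as a term. Errors are standard errors of the model. The p-values rest on the spread between the labelled biological replicates within each group, pooled over the 4 groups. Without the block, the spread within elaidic acid also holds the difference between the array ranges. On the oleic and stearic acid samples alone, 10507 probes were called. The 2 ranges of array numbers come from the labels and may or may not be a batch in another sense. The model was tested on simulated data with independent noise and known differences at some probes. Those simulated arrays held no array range effect. Each list gene was represented by its brightest tested probe, and 32 lists were computed. Genes named were the 8 largest differences each way among called, non-overlapping probes, the 4 smallest blocked p-values each way, the 6 largest each way with a range gap under 25% of the difference or of opposite sign, up to 3 of smallest p in a described list, 20 fixed names, and list members given as examples. The samples and lists were chosen with earlier results of these data known. Promoters came from RefSeq. Alternatives covered normalisation, values at or below 0, dim probes, 1 probe a gene, variance models, blocks, subsets of samples and leaving out each sample. Leaving aside the 2 dimmest arrays was chosen after seeing the data. The plots used Python 3.11.15 and matplotlib 3.10.9.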

Additional observations from a re-analysis of the deposited data

Results flagged for a closer look

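Samples far from the rest of their group by Dixon's test were found in 22 of 260 groups of 4 values tested (8.46%), where chance gives about 1 in 20, and 12 of the 22 were oleic acid replicate 4, the dimmest of the oleic and stearic acid arrays. Among single genes this sample was low at PKP3 (-4.49, the others 5.31 to 5.52), LSM4 (-0.265, the others 3.90 to 4.17), INSIG2 (4.32, the others 6.24 to 6.54) and RPS14 (4.94, the others 6.25 to 6.42). It was high at CAMSAP1 (5.66, the others 4.29 to 4.43) and at the brighter ELOVL6 probe (10.64, the others 9.89 to 9.95). Among list means it was low for SREBP control (7.83, the others 8.35 to 8.41), acute phase proteins (6.06, the others 6.76 to 6.80), coagulation (8.55, the others 9.07 to 9.10), p53 targets (6.45, the others 7.10 to 7.12) and cytosolic ribosomal proteins (8.39, the others 9.27 to 9.38), and it was high for NF-kB targets (8.23, the others 8.01 to 8.02).

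Other oleic acid samples stood apart at SOHLH1 (replicate 2 at -2.58) and ANGPTL4 (replicate 1 at 6.71, the others 6.95 to 6.97). In the stearic acid group replicate 1 was high at SPECC1 (6.23) and CDS2 (11.15). Replicate 2 was low at RPS14 (8.44), PSMB4 (13.6, the others 14.17 to 14.21) and in the mean of the common reference genes (8.23, the others 8.69 to 8.72). Replicate 3 was high at DNAJB14 (3.99), and replicate 4 was low at MTTP (7.80) and AYTL2 (7.67).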

How the results depend on the processing

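The count of 9057 probes was 5125 without normalisation (301 higher and 4824 lower), 5266 with 1 probe a symbol, where fewer probes were tested, 950 against a minimum change of 1.5-fold, and 0 with array range as a fixed block, as a random block (consensus correlation 0.35, 3103 probes at an unadjusted p under 0.05) or with array range block and replicate block together (1382 at an unadjusted p under 0.05). Leaving out 1 replicate gave 4766 (without oleic acid replicate 4) to 9310, and leaving aside the 2 dimmest arrays 6053. The replicate block alone gave 7360. Same-numbered oleic and stearic acid samples correlated in their deviations at 0.159, -0.0381, -0.16 and -0.0685, and only number 1 correlated best with its own number. No pairing by replicate number was seen. The check cannot exclude pairing, because it set only oleic against stearic acid samples, which lie in different array ranges. The 0 blocked calls became 4 with an offset of 50 (NUTF2, GLG1 and 2 unnamed probes) and 286 with array weights, 231 of them also called without the block, and 0 to 29 without 1 replicate. The 930 calls of the range gap were 108 without normalisation, 2395 with an offset of 50, 37 with the replicate block, 2381 on 12 samples, 1521 with an intensity trend and robust variances, 7423 with array weights, 34 against 1.5-fold, 63 to 1702 without 1 replicate and 4906 without the 2 dimmest arrays. Where no value here shows it, the cause was not tested.

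Signs turned without normalisation at ATF3 (-0.23), CPT1A (-0.27) and FADS2 (-0.52). With the range block they turned at EIF4A2 (0.89), CCDC45 (2.85), ZNF330 (2.61), INSIG2 (0.22), MBTPS1 (0.095), LPIN3 (0.045), CCNA2 (0.069), CDS2 (0.17), CPT1A (-0.000449), FADS2 (-0.73) and DDIT3 (0.17), and with the random block at CCDC45 (1.26), ZNF330 (0.19), FADS2 (-0.32) and DDIT3 (0.036). Without 1 replicate FADS2 ran from -0.015 to 0.26 and DDIT3 from -0.25 to 0.15, with both signs turned without oleic acid replicate 4. The NF-kB median was -0.35 without normalisation and -0.10 without oleic acid replicate 4, and the mitosis median was 0.06 on the brighter probes. Of 97 named probes, 94 had the same direction and side of the threshold under loess, 92 under 75th percentile centring and 93 under the replicate block. Of the dimmer probes 25.7% were called and of the brighter ones 53.2%, and whether precision has a part in this was not tested.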
